A study of Homo sapiens with 6 samples.

Results

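Collagen chain genes were taken by symbol alone, as every gene whose symbol is COL, a number, A and a number. Each was measured by a transcript cluster with a single gene symbol, which is the group of probes that the array reads as 1 gene. Where several transcript clusters carried a gene, that of highest mean signal was kept. The rule gave 43 collagen chains of 18276 genes, and COL17A1, a transmembrane chain, was not analysed here. RNA came from SUM159, an established human breast cancer cell line that serves as a model of the mesenchymal-stem like (MSL) subtype of triple negative breast cancer. All samples were grown in three-dimensional (3D) matrigel culture, a gel of basement membrane proteins, and the labels place them at day 6. The 3 control arrays were compared with 3 TβRIII-KD arrays, whose cells stably express a short hairpin RNA against TGFBR3, the gene of the type III TGF-β receptor. The TβRIII-KD line was made by lentiviral infection and puromycin selection with a single shRNA. Each group is 1 cell population, so loss of TβRIII cannot be told apart from other differences between these populations. No source used here says that the samples within a group were separate cultures, so the p-values reflect the spread among these 6 samples alone, and that spread could be technical.

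Collagens are proteins of the extracellular matrix whose chains wind together into a triple helix. Fibrillar collagens build the ropes of connective tissue, and the type IV collagens build the sheet of the basement membrane. Type VIII and X collagens form networks, FACIT collagens sit on the surface of fibrils, and transmembrane collagens are anchored in the plasma membrane. Some collagen molecules hold identical chains and others combine the products of several genes, here called partner chains. TGF-β is a classical inducer of collagen genes in mesenchymal cells, and integrin-α2 with its β1 partner is a receptor for collagen.

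TGFBR3, the target of the shRNA, had log2 signals of 10.81, 10.89 and 10.56 in controls and 9.72, 10.01 and 10.16 in TβRIII-KD. This is a log2 change, the log2 of the TβRIII-KD over control ratio, of -0.79 (SE 0.13, adjusted p = 0.0145 from limma), and the adjusted p was 0.0770 without control 1, 0.0554 without control 2 and 0.0625 without TβRIII-KD 2. All 6 mesenchymal markers of the line had signals above 7.70, the median over all transcript clusters. The epithelial and hormone receptor markers ESR1, PGR, CDH1 and EPCAM lay below it, while ERBB2 and GATA3 lay above it. GATA3 alone of these 6 passed the cutoff described below, as higher in TβRIII-KD (2.33% of all genes passed in either direction). The log2 signals of 5 endothelial markers summed to between 32.92 and 33.39 in controls and between 31.99 and 32.51 in TβRIII-KD. Of these 5, only PECAM1 (-1.04) passed the cutoff, where 2.33% of all genes passed. The signals of 6 fibroblast markers, some of which mesenchymal cancer cells also express, summed to between 46.69 and 47.41 in controls and between 44.83 and 45.72 in TβRIII-KD. Of these 6, 0 passed the cutoff in limma, although the unadjusted p was under 0.05 for 3 in limma (15.6% of all genes) and for 2 by the methods' t-test (13.8% of all genes). Leukocyte markers overlapped between the groups in their sums, and 0 of 5 passed. At an unadjusted p under 0.05 there were 0 in limma (15.6% of all genes) and 1 by the methods' t-test (13.8% of all genes). The scale has no 0 for an absent gene, and the part of these markers in the results on collagens was not tested.

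The 6 type IV collagen genes lie in head-to-head pairs, in which the partner genes are read in opposite directions from a common stretch of DNA. The promoter windows of each pair, as given by RefSeq on GRCh38.p14, overlap, and the stretch upstream of both starts is shown here because partner chains are compared below. The starts of COL4A1 and COL4A2 are 126 bases apart, so the stretch at chr13:110307158-110307283 is all that separates them. The shared stretches of COL4A3 and COL4A4 (chr2:227164374-227164455) and of COL4A5 and COL4A6 (chrX:108439588-108439708) are parts of gaps of 418 and 379 bases. All are written on the plus strand, 5′ to 3′, and capitals mark the CCAAT box and the GC box GGGCGG, read on either strand.
COL4A1 and COL4A2: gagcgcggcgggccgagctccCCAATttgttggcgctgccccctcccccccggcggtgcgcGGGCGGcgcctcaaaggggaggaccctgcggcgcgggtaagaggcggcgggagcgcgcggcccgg
COL4A3 and COL4A4: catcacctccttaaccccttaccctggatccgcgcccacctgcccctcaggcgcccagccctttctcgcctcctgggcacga
COL4A5 and COL4A6: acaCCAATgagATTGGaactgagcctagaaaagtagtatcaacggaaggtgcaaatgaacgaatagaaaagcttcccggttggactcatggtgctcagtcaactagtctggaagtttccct
The first stretch held 1 CCAAT box and 1 GC box and was 80.2% G or C. The second held neither motif at 67.1% G or C, and the third held 2 CCAAT boxes at 44.6% G or C. The 250 bases upstream of COL28A1 (chr7:7535874-7536123, minus strand, written in the direction of the gene) are shown because this gene had the largest change after COL3A1 among the chains.
COL28A1: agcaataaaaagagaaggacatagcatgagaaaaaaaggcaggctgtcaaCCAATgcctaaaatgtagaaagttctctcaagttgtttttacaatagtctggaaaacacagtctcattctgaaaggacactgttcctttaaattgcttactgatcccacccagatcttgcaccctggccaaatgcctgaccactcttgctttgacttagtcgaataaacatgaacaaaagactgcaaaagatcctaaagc
This window held 1 CCAAT box and was 39.6% G or C.

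RefSeq promoter windows were matched for 31 of the 43 chains, in 43 windows since some genes have several starts. COL3A1 and COL8A1, the chains past the cutoff described below, had no matched window, so the counts here do not cover them. Motifs were searched on both strands of the 250 bases before each start, with no overlap between different motifs taken into account. The GC box GGGCGG was in 24 of the 43 windows (55.8%) and in 42.6% of all 35116 windows, and the CCAAT box was in 11 (25.6%) and in 32.0% of all. TATAAA, the core of the TATA box, was in 7 (16.3%, 10.7% of all) and TGANTCA, the AP-1 motif, in 1, that of COL10A1 (2.33%, 6.57% of all). Windows of the chains had a median of 64.4% G or C, and all windows had 58.0%. The part of this in the motif shares was not tested. A match is a description of these letters and not of a bound factor, and windows of head-to-head genes share bases.

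Most collagen chains had similar signals in the control and TβRIII-KD cultures. The cutoff of the study asks for a log2 change beyond 0.5 in either direction and an adjusted p below 0.05. At that cutoff, the fibrillar chain COL3A1 was higher and the network chain COL8A1 was lower in TβRIII-KD. These are 2 of 43 chains (4.65%), where 2.33% of all genes passed the cutoff, 0.772% higher and 1.55% lower. Without the fold limit the same number of chains had an adjusted p under 0.05, against 3.48% of all genes. The median log2 change of the chains was 0.04, with quartiles of -0.04 and 0.10, and that of all genes was 0.01, with quartiles of -0.08 and 0.10. Of the chains, 25 (58.1%) had higher and 18 had lower mean signals in TβRIII-KD, and 54.5% of all genes had higher ones. An unadjusted p under 0.05 in limma was found for 5 chains (11.6%, 15.6% of all genes), and 8 chains (18.6%) had arrays that did not overlap between groups, against 21.3% of all genes. Of these 8, 7 were higher (10.2% of all genes) and COL8A1 alone was lower (11% of all genes).

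**Figure D1:**
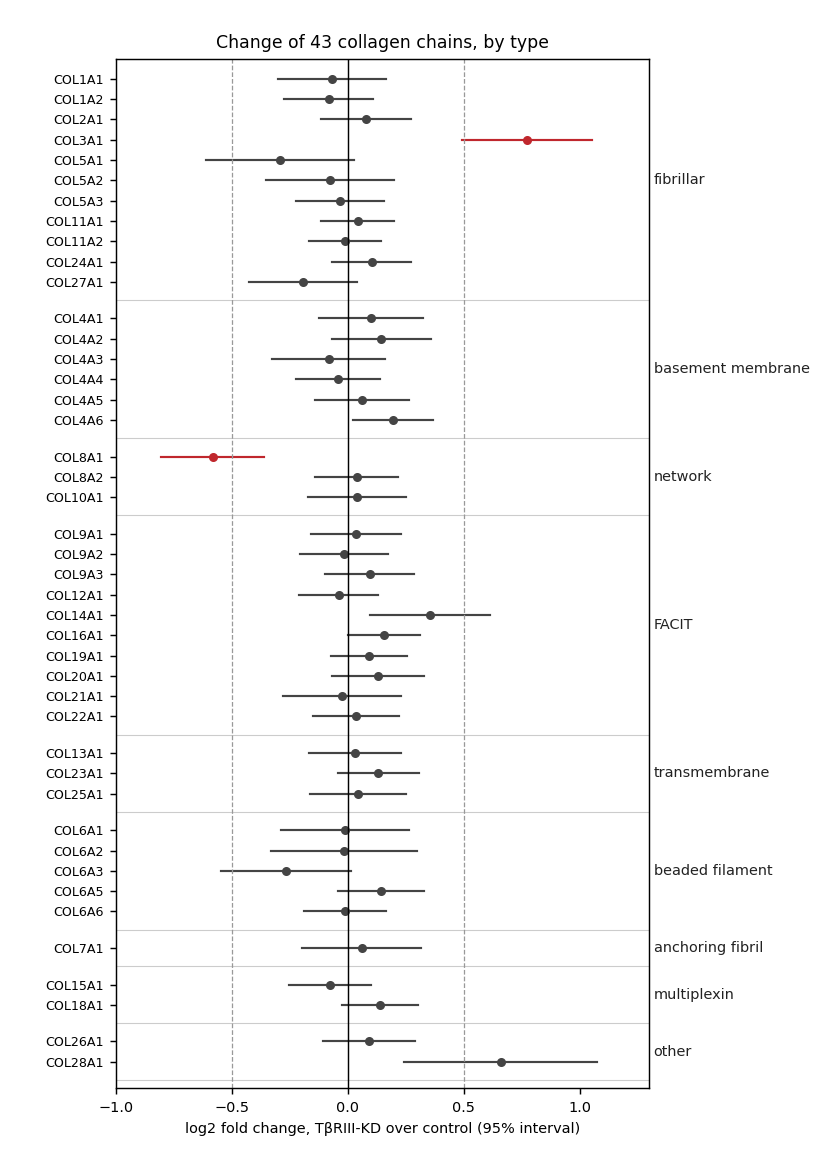
The 43 collagen chains by type, each with its log2 change (dot) and the 95% interval that limma gave (line, n = 3 arrays per group), dashed lines at the fold limit of 0.5 in each direction and red for chains past the cutoff. COL3A1 lies at 0.77 and COL8A1 at -0.59, COL28A1 lies at 0.66 with a wider interval, and 37 of the chains lie within 0.2 of 0.

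For most chains the arrays bounded the change in signal, given the spread among these 6 samples, which could be technical. For chains of low signal this need not bound the change of the transcript. The 95% interval of the fold change lay within 0.5 of 0 on the log2 scale for 37 of 43 chains (86.0%), as it did for 86.3% of all genes. The 6 chains whose intervals reached past 0.5 were COL3A1, COL8A1, COL28A1, COL14A1, COL5A1 and COL6A3. Standard errors of the fold change ran from 0.07 to 0.18, with COL28A1 at the upper end. Signals of 22 chains lay above the median of all transcript clusters and those of 21 below it, and COL3A1, COL8A1 and COL28A1 were among the former. The signal also depends on the probes of each transcript cluster, so levels were not compared between chains.

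COL3A1, the chain of type III collagen, which is a homotrimer found in distensible tissues together with type I, had log2 signals of 8.21, 8.40 and 8.18 in controls and 8.85, 8.95 and 9.30 in TβRIII-KD. Every TβRIII-KD array lay above every control array, and TβRIII-KD 3 lay highest. The mean rose from 8.26 ± 0.12 to 9.04 ± 0.24 (SD, n = 3 arrays per group), a log2 change of 0.77 (SE 0.12, 95% interval 0.49 to 1.05, adjusted p = 0.0128 from limma) or 1.71-fold. The adjusted p was 0.0711 without control 1 and 0.0555 without control 3. COL5A2, its neighbour on chromosome 2 and a chain of type V collagen, had a log2 change of -0.08 (SE 0.12, adjusted p = 0.821).

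Of the other 10 fibrillar chains 0 passed the test in limma, and 0 had an unadjusted p below 0.05 in limma or by the methods' t-test. COL1A1 and COL1A2, the chains of type I collagen, had log2 changes of -0.07 (SE 0.10, 95% interval -0.30 to 0.16) and -0.08 (SE 0.09, 95% interval -0.28 to 0.11). The signal of COL1A2 lay below the median of all transcript clusters, so it need not bound the change of the transcript. COL1A1 had mean signals of 10.20 ± 0.15 in controls and 10.13 ± 0.13 in TβRIII-KD (SD, n = 3 arrays per group), and the groups overlapped. COL5A1, which encodes the main chain of type V collagen, a regulator of fibril diameter, had signals of 9.49, 9.20 and 9.56 in controls and 9.09, 8.89 and 9.38 in TβRIII-KD. Its groups overlapped through control 2, and its log2 change was -0.30 (SE 0.14, adjusted p = 0.372). COL27A1 followed at -0.19 (SE 0.10, adjusted p = 0.428), and the cartilage chains COL2A1, COL11A1 and COL11A2 lay at 0.08, 0.04 and -0.01. COL11A2 was read by 3 transcript clusters, of which a pair with identical values gave -0.18 (SE 0.11, adjusted p = 0.485). The median log2 change of the 11 fibrillar chains was -0.03.

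COL8A1, a chain of the network-forming type VIII collagen of vessel walls and of the cornea, had log2 signals of 8.63, 8.79 and 8.88 in controls and 8.03, 8.21 and 8.30 in TβRIII-KD. Every TβRIII-KD array lay below every control array, with a gap between the groups that was wider than the range of each group. The mean fell from 8.77 ± 0.13 to 8.18 ± 0.14 (SD, n = 3 arrays per group), a log2 change of -0.59 (SE 0.10, 95% interval -0.81 to -0.36, adjusted p = 0.0155 from limma), and the signal was 1.50-fold higher in controls. The adjusted p was 0.0598 without control 2, 0.0691 without control 3 and 0.0623 without TβRIII-KD 2. The other network chains, COL8A2 and the growth plate chain COL10A1, both had a log2 change of 0.04 (SE 0.08 and 0.09). Signals of both lay below the median of all transcript clusters, where a steady signal need not bound the change of the transcript.

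**Figure D2:**
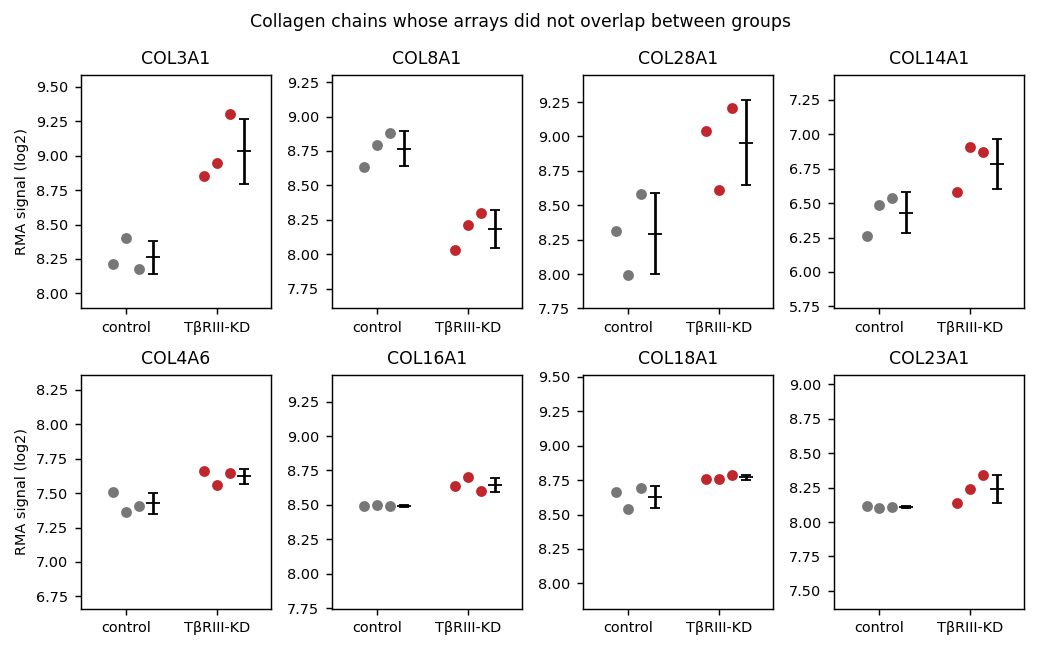
RMA signal (log2) of the 8 collagen chains whose arrays did not overlap between groups, where each dot is an array (grey for control, red for TβRIII-KD) and the marks to the right of the dots give mean and SD (n = 3 arrays per group). The shifts of COL3A1, COL8A1 and COL28A1 are larger than those of the other 5 chains, and COL28A1 also has the widest spread within groups.

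Among the type IV chains of the basement membrane, 0 of 6 passed the cutoff in limma. The unadjusted p was under 0.05 for 1 in limma (15.6% of all genes) and for the same chain by the methods' t-test (13.8% of all genes). That chain, COL4A6, had log2 signals of 7.51, 7.36 and 7.41 in controls and 7.66, 7.56 and 7.65 in TβRIII-KD. The arrays did not overlap, but the shift was small, with a log2 change of 0.20 (SE 0.08, adjusted p = 0.254). COL4A1 and COL4A2, the chains of the common type IV molecule, had log2 changes of 0.10 (SE 0.10, 95% interval -0.12 to 0.32) and 0.14 (SE 0.09, 95% interval -0.07 to 0.36). Signals of COL4A2 were 7.86, 7.71 and 8.01 in controls and 8.11, 7.97 and 7.94 in TβRIII-KD, and those of COL4A1 had means of 7.11 ± 0.10 and 7.21 ± 0.16 (SD, n = 3 arrays per group). For both chains TβRIII-KD 1 was the highest and control 2 the lowest of the 6 arrays. COL4A3 and COL4A4 lay at -0.08 and -0.04 and COL4A5 at 0.06, and the median of the 6 chains was 0.08.

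FACIT collagens had 0 of 10 chains past the cutoff in limma. An unadjusted p under 0.05 was found in limma for COL14A1 alone (15.6% of all genes). By the methods' t-test it was found for COL16A1 alone (13.8% of all genes). COL14A1, which binds fibrils of connective tissue, had log2 signals of 6.26, 6.49 and 6.54 in controls and 6.58, 6.91 and 6.87 in TβRIII-KD. The groups were separated only by the narrow gap between control 3 and TβRIII-KD 1, and the log2 change of 0.35 (SE 0.11, adjusted p = 0.160) did not pass the test. COL16A1 had nearly constant controls, at 8.49, 8.50 and 8.49, and TβRIII-KD signals of 8.64, 8.70 and 8.60, a log2 change of 0.15 (SE 0.07, adjusted p = 0.329). COL12A1, a fibril-associated chain of tendon and of tumor stroma, had a log2 change of -0.04 (SE 0.07, 95% interval -0.21 to 0.13). The other 7 chains lay between -0.03 (COL21A1) and 0.13 (COL20A1), and the median of the 10 was 0.06.

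Type VI collagen forms beaded filaments around cells, and COL6A1, COL6A2 and COL6A3 encode its usual chains. COL6A1 signals were 10.61, 10.47 and 10.82 in controls and 10.61, 10.43 and 10.82 in TβRIII-KD. COL6A2 had SDs of 0.21 and 0.23 in the groups, and its means were 10.08 and 10.06. Both genes, neighbours on chromosome 21, varied in the same way among the arrays within each group, and their log2 changes were -0.01 (SE 0.12) and -0.02 (SE 0.14). COL6A3 had signals of 12.42, 12.27 and 12.53 in controls and 12.26, 11.87 and 12.29 in TβRIII-KD, a log2 change of -0.27 (SE 0.12, adjusted p = 0.358), with TβRIII-KD 2 lowest. COL6A5 and COL6A6 lay at 0.14 and -0.01. Of these 5 chains 0 passed the cutoff in limma, and the unadjusted p was below 0.05 for 0 in limma and for 0 by the methods' t-test.

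The remaining types also had 0 chains past the cutoff in limma. COL28A1, whose product carries von Willebrand factor A domains as type VI chains do, had log2 signals of 8.31, 7.99 and 8.58 in controls and 9.04, 8.61 and 9.21 in TβRIII-KD. Control 3 and TβRIII-KD 2 almost met, and the log2 change of 0.66 (SE 0.18, 95% interval 0.24 to 1.08, adjusted p = 0.106), although above the fold limit, did not pass the test. COL18A1, a multiplexin of basement membranes and the source of endostatin, lay at 0.14 (SE 0.07, adjusted p = 0.427), with TβRIII-KD arrays at 8.76, 8.76 and 8.79 and controls at 8.66, 8.54 and 8.69. The other multiplexin, COL15A1, lay at -0.08 (SE 0.08). COL23A1, a transmembrane chain, lay at 0.13 (SE 0.08, adjusted p = 0.487), with controls at 8.12, 8.10 and 8.11 and TβRIII-KD arrays at 8.14, 8.24 and 8.34. Its groups did not overlap, but TβRIII-KD 1 lay just above the controls. COL13A1 and COL25A1, the other transmembrane chains, lay at 0.03 and 0.04, COL26A1 at 0.09 and COL7A1, the chain of the anchoring fibrils that fasten epithelium to dermis, at 0.06. An unadjusted p under 0.05 was found in limma for COL28A1 (15.6% of all genes) and by the methods' t-test for COL18A1 (13.8% of all genes). None of the other 6 chains had one by either test.

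**Figure D3:**
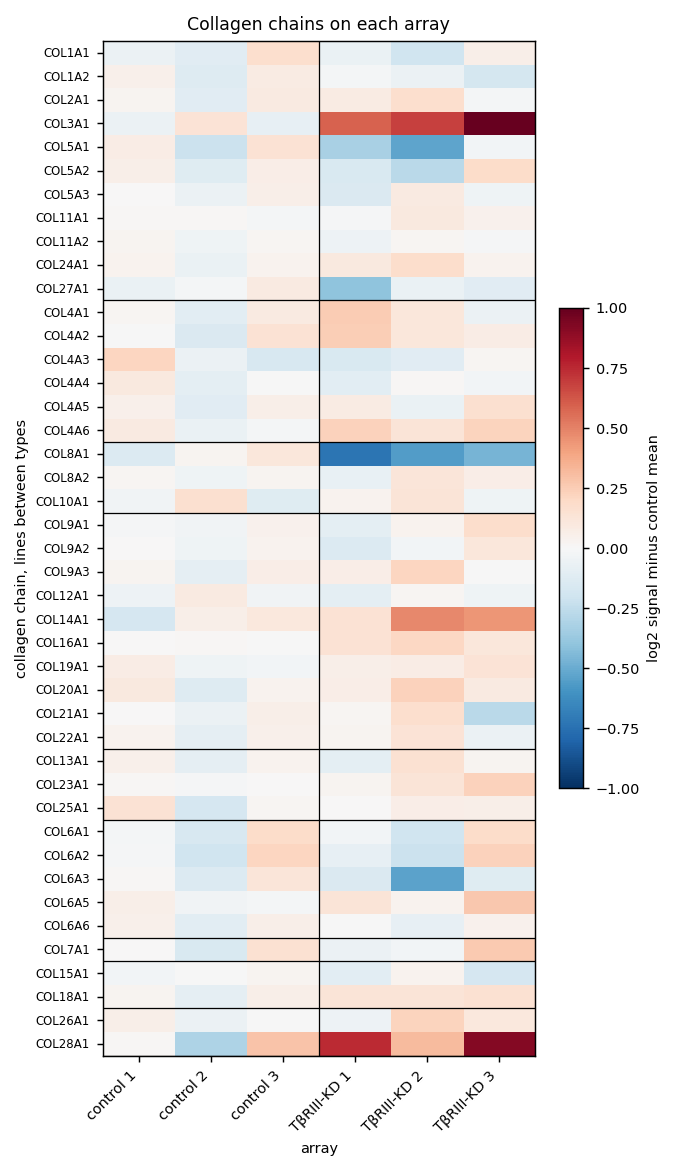
Log2 signal of each collagen chain on each array minus the mean of its 3 controls, from blue (lower) to red (higher) with the colours ending at -1 and 1, with arrays in columns and chains in rows ordered by type (fibrillar, basement membrane, network, FACIT, transmembrane, beaded filament, anchoring fibril, multiplexin, other). COL3A1 and COL28A1 are red and COL8A1 is blue on all 3 TβRIII-KD arrays, and most other rows are pale.

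Partner chains of the same collagen were then set against each other within each array, where shifts common to an array cancel. Of 10 pairs, 4 had differences that did not overlap between groups, and each of these had an exact permutation p of 0.1 (two-sided, the smallest that 3 arrays against 3 allow, and 0.25 after Benjamini-Hochberg adjustment over the 10 pairs), so no pair could pass the test in this design. Single genes did not overlap in 21.3% of cases, but the share among pairs of genes was not computed, so the count of 4 is a description only. COL8A1 minus COL8A2 was 1.90 ± 0.13 in controls and 1.28 ± 0.07 in TβRIII-KD (SD, n = 3 arrays per group), a difference of -0.62 between the changes of the chains. COL8A2 is the chain of low signal named above. COL5A1 minus COL5A2 was 1.39 ± 0.09 and 1.17 ± 0.04, a difference of -0.22, and neither chain passed the test in limma. COL6A1 minus COL6A3 was -1.77 ± 0.05 and -1.52 ± 0.12, a difference of 0.25, and COL4A5 minus COL4A6 was 0.85 ± 0.06 and 0.72 ± 0.07, a difference of -0.13. These values compare changes, since the level of a chain on this scale also depends on its probes.
The other 6 pairs overlapped between groups. COL6A1 minus COL6A2 was 0.56 ± 0.04 in controls and 0.56 ± 0.05 in TβRIII-KD, while COL6A1 alone had SDs of 0.17 and 0.19 among the same arrays. COL4A1 minus COL4A2, the pair that shares the first stretch shown above, was -0.75 ± 0.05 and -0.79 ± 0.08 (exact permutation p = 0.5). COL1A1 minus COL1A2 was 3.00 ± 0.10 and 3.02 ± 0.20 (exact permutation p = 1). The remaining pairs differed by -0.04 (COL4A3 and COL4A4), -0.11 (COL9A2 and COL9A3) and 0.06 (COL11A1 and COL11A2).

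**Figure D4:**
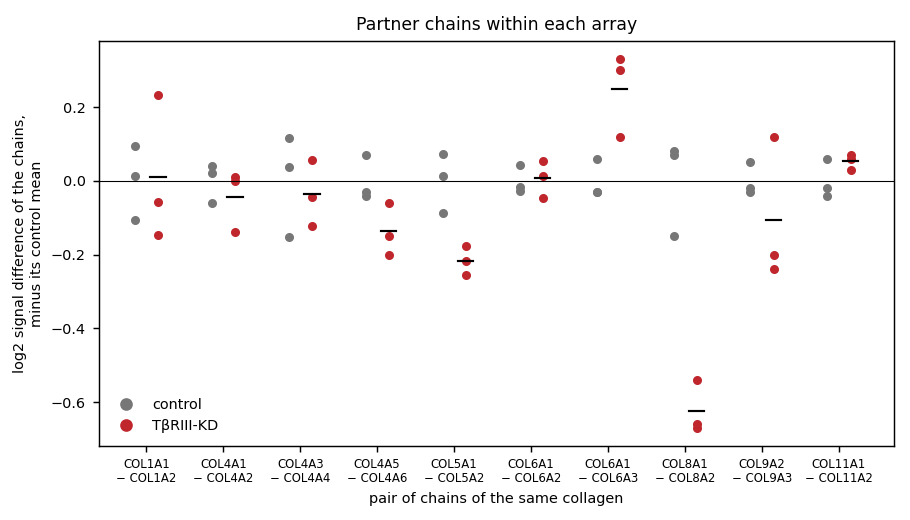
Log2 signal of one chain minus that of its partner on each array, shown relative to the control mean of the pair, with grey dots for 3 control arrays, red dots for 3 TβRIII-KD arrays and a black line at the TβRIII-KD mean. COL8A1 minus COL8A2 is shifted by -0.62, and COL6A1 minus COL6A2 lies around 0 in both groups.

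Genes that make, process, bind or sense collagen passed the cutoff in both directions. Of 77 such genes measured in 7 lists, 2 were higher, the receptor subunit ITGA2 and the basement membrane linker NID1, and 4 were lower, FKBP14, ADAMTS2, TGM2 and DDR2. This is 7.79% of the 77 genes, and 2.33% of all genes passed. The lists were chosen with earlier results of these data known, so this share is a description only and not independent evidence. The median log2 change of the 77 genes was -0.04, and that of all genes was 0.01. Without control 1 or TβRIII-KD 2 the number lower was 2. Without the fold limit, MRC2 and SMAD3 were also higher and SPARC was also lower.

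In the secretory pathway, collagen chains are hydroxylated, folded and carried out of the cell by dedicated enzymes and chaperones. Of 20 genes of this list, 1 passed the cutoff, where 2.33% of all genes passed. It was FKBP14, which encodes a prolyl isomerase of the endoplasmic reticulum that helps collagen fold. Its log2 signals were 8.70, 8.87 and 8.65 in controls and 8.23, 8.05 and 8.16 in TβRIII-KD, with no overlap, and it fell by 0.59 (SE 0.09, adjusted p = 0.00874). The adjusted p stayed under 0.05 without any 1 array. In this list 16 of 20 genes had lower mean signals in TβRIII-KD, as did 45.5% of all genes, with a median log2 change of -0.12. Without TβRIII-KD 2 the count was 12 of 20 and the median -0.06. They include the lysyl hydroxylase PLOD3 at -0.21 (adjusted p = 0.178) and the collagen chaperone SERPINH1 at -0.26 (adjusted p = 0.224), neither of which passed the test.

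Outside the cell, proteinases trim the ends of procollagens and other enzymes cross-link the fibrils. ADAMTS2, which removes the amino-terminal propeptides of fibrillar procollagens including type III, alone passed of 8 processing genes (2.33% of all genes passed). Its signals were 10.07, 9.98 and 9.92 in controls and 9.37, 9.40 and 9.57 in TβRIII-KD, and it fell by 0.54 (SE 0.08, adjusted p = 0.0109, and 0.0663 without control 1 and 0.0533 without TβRIII-KD 2). The procollagen proteinase enhancer PCOLCE2 lay at -0.53 (SE 0.14, adjusted p = 0.0905), and BMP1, the carboxy-terminal proteinase, at 0.12. Of 7 cross-linking genes 1 passed (2.33% of all genes passed), the transglutaminase TGM2. Its signals were 9.67, 9.87 and 10.15 in controls and 9.02, 8.65 and 9.13 in TβRIII-KD. It fell by 0.96 (SE 0.15, adjusted p = 0.0123, and under 0.05 without any 1 array). The lysyl oxidases LOX and LOXL1 lay at -0.35 and -0.34, with adjusted p values of 0.407 and 0.0795.

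Of 9 collagen receptors, 1 passed the cutoff as higher, ITGA2, and 1 as lower, DDR2, where 2.33% of all genes passed in either direction. ITGA2, the collagen-binding integrin subunit, had signals of 9.97, 10.13 and 10.12 in controls and 11.28, 11.15 and 10.84 in TβRIII-KD, and rose by 1.02 (SE 0.12, adjusted p = 0.00311). DDR2, a receptor tyrosine kinase for fibrillar collagens that include types I and III, had signals of 8.92, 8.69 and 9.19 in controls and 8.14, 8.05 and 8.18 in TβRIII-KD. The groups did not overlap, the SD was 0.25 in controls and 0.06 in TβRIII-KD, and DDR2 fell by 0.81 (SE 0.12, adjusted p = 0.00994, and 0.0518 without control 1 and 0.0572 without TβRIII-KD 2). Its relative DDR1 lay at -0.42 (SE 0.11, adjusted p = 0.0826), and ITGB1, the partner of integrin-α2, lay at 0.17 (SE 0.07, adjusted p = 0.282). The other 5 receptors of the 9 measured lay between -0.11 (LAIR1) and 0.14 (ITGA10).

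Among 15 proteins that bind collagens, NID1, which links type IV collagen to laminin, had signals of 7.80, 7.43 and 7.55 in controls and 9.37, 9.12 and 9.30 in TβRIII-KD. It rose by 1.67 (SE 0.11, adjusted p = 0.000206), the largest change among the 77 genes, while the type IV chains it binds lay between -0.08 and 0.20. SPARC, a collagen-binding matricellular protein, fell by 0.45 (SE 0.08, adjusted p = 0.0189, and 0.0606 to 0.0997 without control 1, control 3, TβRIII-KD 1 or TβRIII-KD 2), which is within the fold limit. The basement membrane proteoglycan HSPG2 lay at 0.43 (adjusted p = 0.0526), the matricellular protein THBS1 at -0.51 (adjusted p = 0.0555) and the matrilin MATN2 at -0.73 (adjusted p = 0.0608).
Of 9 genes of collagen degradation and uptake, 0 passed the cutoff in limma, and the unadjusted p was under 0.05 for 3 in limma (15.6% of all genes) and for 2 by the methods' t-test (13.8% of all genes). MRC2, an endocytic receptor that takes up collagen fragments, rose by 0.39 (SE 0.07, adjusted p = 0.0294), under the fold limit, and its adjusted p was 0.0740 to 0.123 without any 1 array other than TβRIII-KD 3. FAP, a serine proteinase that also stands in the fibroblast list, lay at -0.68 (SE 0.15, adjusted p = 0.0534). The collagenases MMP1, MMP8 and MMP13 lay at 0.21, 0.29 and 0.02, with adjusted p values of 0.571, 0.219 and 0.940. Among 9 listed regulators of collagen genes, mostly transcription factors, 0 passed the cutoff in limma. The unadjusted p was under 0.05 for 3 in limma (15.6% of all genes) and for 2 by the methods' t-test (13.8% of all genes). SMAD3, a mediator of TGF-β signaling to collagen genes, rose by 0.43 (SE 0.07, adjusted p = 0.0111, and 0.0619 without control 1 and 0.0511 without control 2), and SOX9, the activator of cartilage collagen genes, lay at 0.39 (SE 0.09, adjusted p = 0.0503). RUNX2, the other factor with an unadjusted p under 0.05 in limma, went the other way at -0.37 (SE 0.12, adjusted p = 0.165). Its arrays did not overlap between groups. SMAD7, the inhibitory SMAD, lay at 0.10 (SE 0.10, adjusted p = 0.693).

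**Figure D5:**
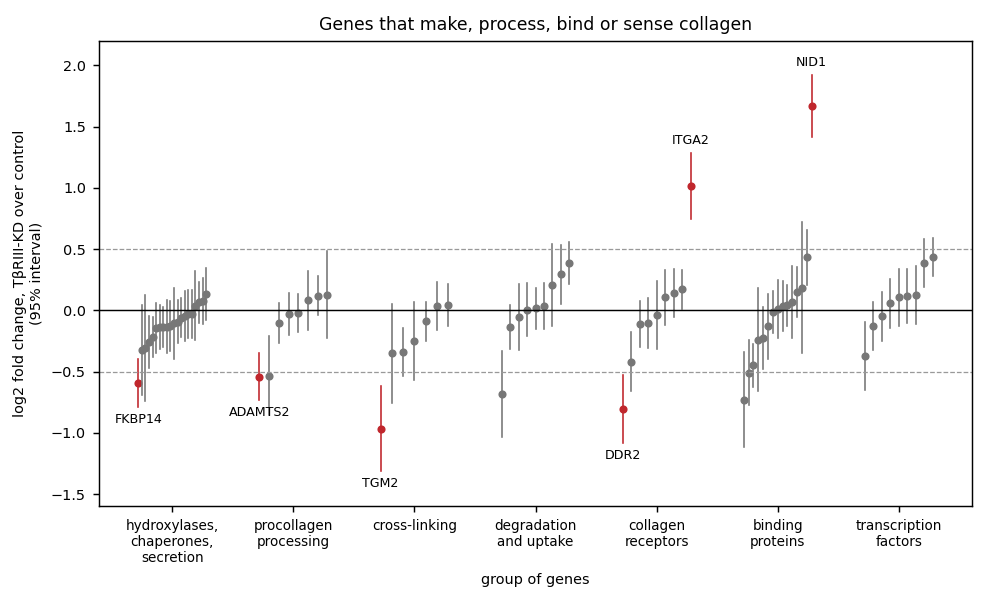
The 77 genes that make, process, bind or sense collagen, by list, each with its log2 change (dot) and the 95% interval that limma gave (line, n = 3 arrays per group), dashed lines at the fold limit of 0.5 and red with names for genes past the cutoff. NID1 (1.67) and ITGA2 (1.02) lie above the other genes, and TGM2 (-0.96) lies lowest.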

How the data were processed

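RNA of 3 control and 3 TβRIII-KD samples of SUM159 was hybridized to Human Gene 1.0 ST arrays. The authors deposited log2 signals, for which oligo under R 3.0.1 ran RMA (it corrects background, equalizes quantiles and summarizes probes). Which versions of oligo and limma they had, and how transcript clusters were filtered, is not given in the sources used here. Of 22148 transcript clusters, 19129 carry 1 gene symbol, 1735 several and 1284 none here, by the platform annotation with symbols updated from RefSeq. Array medians lay between 7.67 and 7.71. Precision is limited by having 3 arrays per group.

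Both groups were compared by limma 3.58.1 under R 4.3.3 (eBayes without trend, two-sided, no block), adjusted over all transcript clusters by Benjamini-Hochberg. Partner chains were compared by exact permutation. The members, lists and pairs were chosen with earlier results of these data known, so no count over a list is independent evidence. Named were the chains at an adjusted p under 0.05, with an unadjusted p under 0.05 or with separate arrays, the 2 of each type with the smallest p, the pairs, the pathway genes past the cutoff (or the 2 with the smallest p) and ITGA2, ITGB1 and TGFBR3. Any further gene was picked with its value known. The methods' t-test is the unpaired test of the study's general statistics section, while its array methods name limma. Alternatives were moderation with a trend or robust, array weights, that test, a filter on dim transcript clusters, median centring, a replicate block, repeated quantile normalization, fold limits of 0 and 1, averaging over all transcript clusters of a gene, and leaving out arrays in turn. The fit was also run on simulated arrays with independent noise, which checks the code and not whether the real arrays are independent.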

Additional observations from a re-analysis of the deposited data

How the results depend on the processing

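The number of collagen chains past the cutoff, 1 higher and 1 lower, was 0 and 0 by the methods' t-test after adjustment and with a fold limit of 1, and the number without the fold limit, 2 in limma, was 0 by the methods' t-test after adjustment and 5 before it. Without any 1 array, the numbers were 0 to 1 higher, 0 to 1 lower and 0 to 2 without the fold limit. For the pathway genes, 2 higher and 4 lower, they were 0 and 0 by the methods' t-test after adjustment, 8 lower without adjustment, 4 higher without the fold limit, 0 lower with a limit of 1 and, without any 1 array, 2 to 3 higher and 2 to 6 lower. TGFBR3 kept its log2 change of -0.79 in the methods' t-test (adjusted p = 0.198) and had -0.89 to -0.67 without any 1 array. The median of the chains stayed between 0.002 and 0.058.

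The replicate numbers were not taken to pair arrays, since same-numbered arrays varied together only weakly over all transcript clusters. Their deviations from the group means had correlations of -0.06, 0.11 and 0.31. Some chains did match by number, as COL6A1 with 10.61, 10.47 and 10.82 in controls and 10.61, 10.43 and 10.82 in TβRIII-KD. With the replicate numbers as a block in limma, 2 chains were higher, COL28A1 being the second (adjusted p = 0.00337), and 7 pathway genes were lower.

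Of the 43 collagen chains, 19 with changes near 0 changed sign under some alternative and the other 24 did not. Without any 1 array their log2 changes ran as COL10A1 -0.021 to 0.118, COL11A2 -0.035 to 0.004, COL12A1 -0.069 to 0.002, COL13A1 -0.033 to 0.091, COL1A1 -0.135 to 0.016, COL21A1 -0.124 to 0.094, COL22A1 -0.015 to 0.081, COL25A1 -0.041 to 0.116, COL4A3 -0.162 to 0.026, COL4A4 -0.09 to 0.007, COL5A2 -0.211 to 0.015, COL5A3 -0.095 to 0.024, COL6A1 -0.114 to 0.079, COL6A2 -0.145 to 0.086, COL6A6 -0.066 to 0.021, COL7A1 -0.043 to 0.135, COL8A2 -0.004 to 0.094, COL9A1 -0.032 to 0.103 and COL9A2 -0.082 to 0.044. After repeated quantile normalization COL6A1 had 0.024 and COL6A2 0.008, and with array weights COL13A1 had -0.0 to 3 decimals. Of 31 other genes followed, MMP13 alone changed sign, with -0.013 to 0.056 without any 1 array and -0.022 after repeated quantile normalization. The causes were not tested.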
